A study of Mus musculus with 6 samples.

Results

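The clustered protocadherin locus of the mouse was examined in male germ cells: the 920 kb of chromosome 18 from 37090000 to 38010000 (mm9) that hold the alpha, beta and gamma clusters. All CpG cytosines of the deposited table within these bounds were taken, which gave 6015 of 10025464 cytosines (0.06%), or 5065 CpGs once both strands of a CpG were merged. Summed over windows of 1 kb (tiles), they filled 776 tiles, of which 303 held 1 to 2 CpGs, 317 held 3 to 9, 90 held 10 to 19, and 66 held 20 or more. Position alone set which cytosines belonged to the locus, and no methylation value entered that rule. The locus itself was picked with earlier results of these data known.

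Clustered protocadherins are cell-surface adhesion proteins best known from neurons, where cells that carry the same set of them recognise each other. The genes of a cluster lie in a row as near copies, each with a large first exon and a promoter of its own, and the alpha and gamma first exons are spliced to constant exons shared by their cluster. In neurons each cell uses a few of these promoters, CTCF binds many of them, and methylation of a promoter goes with its silence. Male germ cells lose most DNA methylation in the embryo and regain it around birth, except at most CpG-rich promoters. TEX15 is a germ cell protein known for its part in the silencing of retrotransposons.

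The study asked how loss of Tex15 alters DNA methylation in male germ cells, and it compared 3 genotypes by whole-genome bisulfite sequencing, in which an unmethylated cytosine is read as T and a methylated one as C. The groups were Tex15KO (both copies mutant, Tex15-/-, pups 3 and 16), Tex15HT (heterozygous, Tex15+/-, pups 7 and 18) and Tex15WT (wild type, Tex15+/+, pups 8 and 9), with n = 2 pups each; the HT and WT pups together are called the 4 controls. All were male pups at postnatal day 2.5 from matings of Tex15+/- parents on a mixed strain background. All carried the Oct4-GFP reporter, whose green fluorescence in germ cells was used to sort them by flow, and about 10 ng of DNA from each pup was used. The kind of mutation is not given in the labels, and with DNA methylation alone the identity of the sorted cells could not be checked on marker genes.

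The table held 27495658 to 52935635 calls per pup, a call being 1 read of a cytosine. The locus received 12099 and 23847 of them in KO pups 3 and 16, 14207 and 17953 in HT pups 7 and 18, and 14376 and 15252 in WT pups 8 and 9. KO 3 stood apart. It had no call at 75.3% of the cytosines of the locus, against 1.41% in KO 16 and 4.62% to 10.2% in the controls. Of its 525 cytosines with 6 to 10 calls, 95.4% read all C or all T, against 60.5% in KO 16 and 50.7% to 63.5% in the controls. Both traits of KO 3 held over the whole table, at 74.4% without a call and 96.5% all C or all T, and were not particular to the locus. Levels of the tiles tested below correlated across the 177 tiles at Pearson r = 0.771 to 0.796 in the 5 pairs of pups with KO 3 and at 0.923 to 0.96 in the other 10 pairs. Tiles are not independent replicates and the pairs share pups, so these are descriptions. The genotype comparisons are therefore given with and without KO 3 where the value turns on it.

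The methylation level of the locus depended on the number of CpGs in a tile. Tiles with 1 to 2 CpGs, the sparsest, were at 75.3% and 81.6% in the KO pups, 80.1% and 81.1% in the HT pups, and 81.8% and 77.8% in the WT pups. Tiles with 3 to 9 CpGs were at 66.4% and 69.0% in the KO pups, 66.6% and 68.1% in the HT pups, and 68.2% and 65.6% in the WT pups. Tiles with 10 to 19 CpGs were at 28.0% and 22.3% in the KO pups, 19.7% and 24.3% in the HT pups, and 21.3% and 24.3% in the WT pups. Tiles with 20 or more CpGs, called dense tiles here, were at 7.70% and 8.10% in the KO pups, 4.93% and 6.28% in the HT pups, and 6.57% and 9.47% in the WT pups. The order of the 4 classes was the same in all 6 pups, and within each class the genotypes overlapped except that in dense tiles both HT pups lay below all KO and WT pups.

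**Figure D1:**
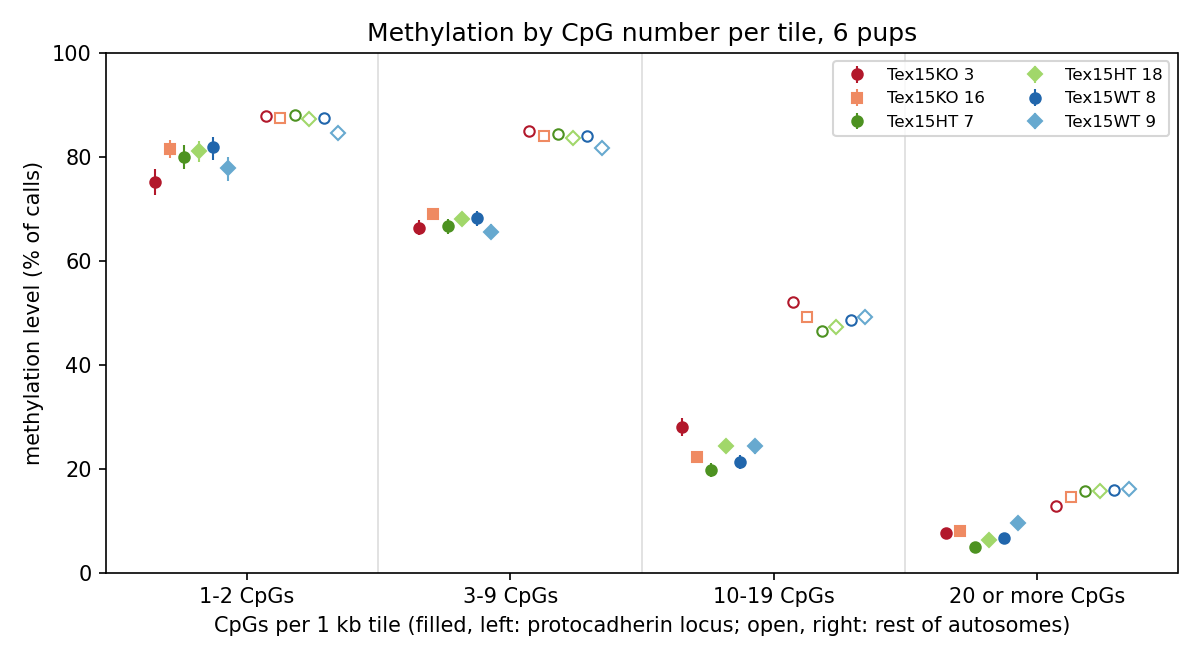
Methylation level in percent of calls (vertical axis) by the number of CpGs per 1 kb tile (horizontal axis), 1 symbol per pup, with the locus filled at the left and the rest of the autosomes open at the right of each class. In tiles with 10 to 19 CpGs the locus lay between 19.7% and 28.0%, and the rest of the autosomes between 46.4% and 52.0%.

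The locus was less methylated than other autosomal tiles with a like number of CpGs. In tiles with 10 to 19 CpGs the locus averaged 25.1 ± 4.02% in KO, 22.0 ± 3.25% in HT and 22.8 ± 2.09% in WT pups, against 50.6 ± 2.02%, 46.9 ± 0.607% and 48.9 ± 0.387% for KO, HT and WT in the rest of the autosomes (SD, n = 2 each). The locus was lower by 25.5 ± 1.75 points (SD over 6 pups), and the difference lay between -27.3 and -23.0 points in single pups. Its size depended on the calls and the summary used: it was -41.4 points without the cytosines in the top 0.1% of coverage, -41.5 against the rest of chromosome 18, -44.6 as a mean of tile levels, -78.6 as a median of tile levels, and -16.4 over cytosines read in all 6 pups. In tiles with 3 to 9 CpGs the locus averaged 67.7 ± 1.80% in KO, 67.4 ± 1.07% in HT and 66.9 ± 1.83% in WT pups. The rest of the autosomes averaged 84.5 ± 0.753% in KO, 84.0 ± 0.523% in HT and 82.8 ± 1.68% in WT pups (SD, n = 2 each), and the difference was -16.5 ± 1.42 points over the 6 pups. It was -9.25 points as a median of tile levels and -6.82 over cytosines read in all 6 pups. Both differences were negative in 6 of 6 pups. A two-sided exact permutation test exchanged the sign within each pup. This permutation test gave p = 0.03125 for each, the smallest p that 6 pups allow. Adjusted over the 3 classes with 3 or more CpGs, its p was 0.03125. A test of this kind measures whether a difference repeats over pups, not how unusual the locus is among regions.

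In the dense tiles the direction depended on the comparison. Pooled over all calls they were lower than the rest of the autosomes by 7.97 ± 2.19 points, in 6 of 6 pups (exact permutation p = 0.03125, adjusted p = 0.03125). Against the rest of chromosome 18 they were higher by 2.23 points in 6 of 6 pups (p = 0.0312, exact permutation test). The rest of chromosome 18 had 5.26% in KO, 4.64% in HT and 4.92% in WT pups in this class, against 7.90 ± 0.283%, 5.61 ± 0.955% and 8.02 ± 2.05% in the locus. With the cytosines in the top 0.1% of coverage left out, the difference from the rest of the autosomes was 1.23 points (exact permutation p = 0.125), and as a mean of tile levels it was -0.192 points (exact permutation p = 0.688). Over cytosines read in all 6 pups it was -17.5 points (exact permutation p = 0.0312), wider than in the other classes under that setting, and against tiles matched on CpG number it was -5.21 points (exact permutation p = 0.0312). The median tile was also higher in the locus. It was 0.597% and 6.05% in the KO pups, 4.30% and 5.06% in the HT pups and 5.82% and 8.45% in the WT pups, against medians of 0 to 1.39% in the rest of the autosomes.

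Single tiles of the locus fell into low, partly methylated and high ones. Over the pooled calls of the controls, 64 of the 66 dense tiles (97.0%) were below 20%, against 91.0% of dense tiles in the rest of the autosomes, and none was above 80%, against 3.27%. Of the 90 tiles with 10 to 19 CpGs, 64 (71.1%) were below 20% and 5 (5.56%) above 80%, against 18.7% and 61.5% in the rest of the autosomes. Of the 317 tiles with 3 to 9 CpGs, 34 (10.7%) were below 20% and 175 (55.2%) above 80%, against 1.71% and 84.0%. Low tiles were thus 168 of the 709 tiles of the locus with at least 10 pooled control calls (23.7%), against 3.62% elsewhere on the autosomes. No test was made over tiles, which are not replicates.

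The low tiles lay side by side. Adjoining tiles below 20% formed 69 runs, 33 of which (47.8%) were at least 3 kb long, against 13.6% of 40673 runs in the rest of the autosomes. The longest spanned 8 kb (chr18:37906001-37914000, 149 CpGs, 4 of its tiles dense), with levels of 3.60% and 7.86% in the KO pups, 4.57% and 5.18% in the HT pups, and 5.76% and 9.26% in the WT pups. All 6 pups were low over the whole stretch. The longest run elsewhere spanned 15 kb. Low runs also occurred without a dense tile. Of these, 3 stretches of 4 kb are described here, and shorter ones also occurred. One of them, chr18:37479001-37483000 with 29 CpGs, had 8.60% and 13.4% in the KO pups, 7.04% and 7.89% in the HT pups, and 15.8% and 13.5% in the WT pups. The second, chr18:37839001-37843000 with 40 CpGs, had no C among 30 calls in KO 3 (which allows up to 10.0%) and 10.1% in KO 16, 8.91% and 12.7% in the HT pups, and 5.68% and 10.7% in the WT pups. The third, chr18:37089001-37093000 with 51 CpGs, began 1 tile before the locus and had 1.59% and 6.25% in the KO pups, 4.19% and 8.46% in the HT pups, and 2.84% and 8.61% in the WT pups. These 3 runs were named after their values were seen.

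The 66 dense tiles came as 47 separate runs of adjoining tiles, and these gathered in 5 blocks when gaps under 50 kb were bridged. An annotation of mm9 was not used here, so blocks and tiles carry no gene names. RefSeq names 58 protocadherin genes of the clusters on GRCm38.p6, 14 of family Pcdha, 22 Pcdhb and 22 Pcdhg. The same table sets Slc25a2, a mitochondrial carrier, and Taf7, a subunit of the general transcription factor TFIID, between Pcdhb22 and Pcdhga1.

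The first block (chr18:37099001-37182000) held 19 dense tiles, at 14.5% and 6.96% in the KO pups, 4.63% and 5.31% in the HT pups, and 7.61% and 10.7% in the WT pups. The second (chr18:37303001-37305000) held only 2 dense tiles, which were the least methylated, with no C among 150 calls in KO 3 (which allows up to 2.0%), 0.294% in KO 16, 1.06% and 2.34% in the HT pups, and 1.60% and 0.526% in the WT pups. Both KO pups lay below all controls there, and all pups were within 3 points of 0. The third (chr18:37456001-37517000) held 4 dense tiles, at 23.1% and 12.2% in the KO pups, 5.87% and 8.08% in the HT pups, and 7.35% and 7.97% in the WT pups. Here both KO pups lay above all controls, with 104 calls in KO 3. The fourth (chr18:37582001-37704000) held 12 dense tiles, at 6.93% and 12.5% in the KO pups, 8.06% and 9.91% in the HT pups, and 8.83% and 13.2% in the WT pups. The last and longest (chr18:37803001-38002000) held 29 dense tiles, at 4.34% and 7.31% in the KO pups, 4.18% and 5.66% in the HT pups, and 5.45% and 8.22% in the WT pups. In the last 2 blocks the genotypes overlapped, and in the first KO 16 lay within the range of the controls.

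**Figure D2:**
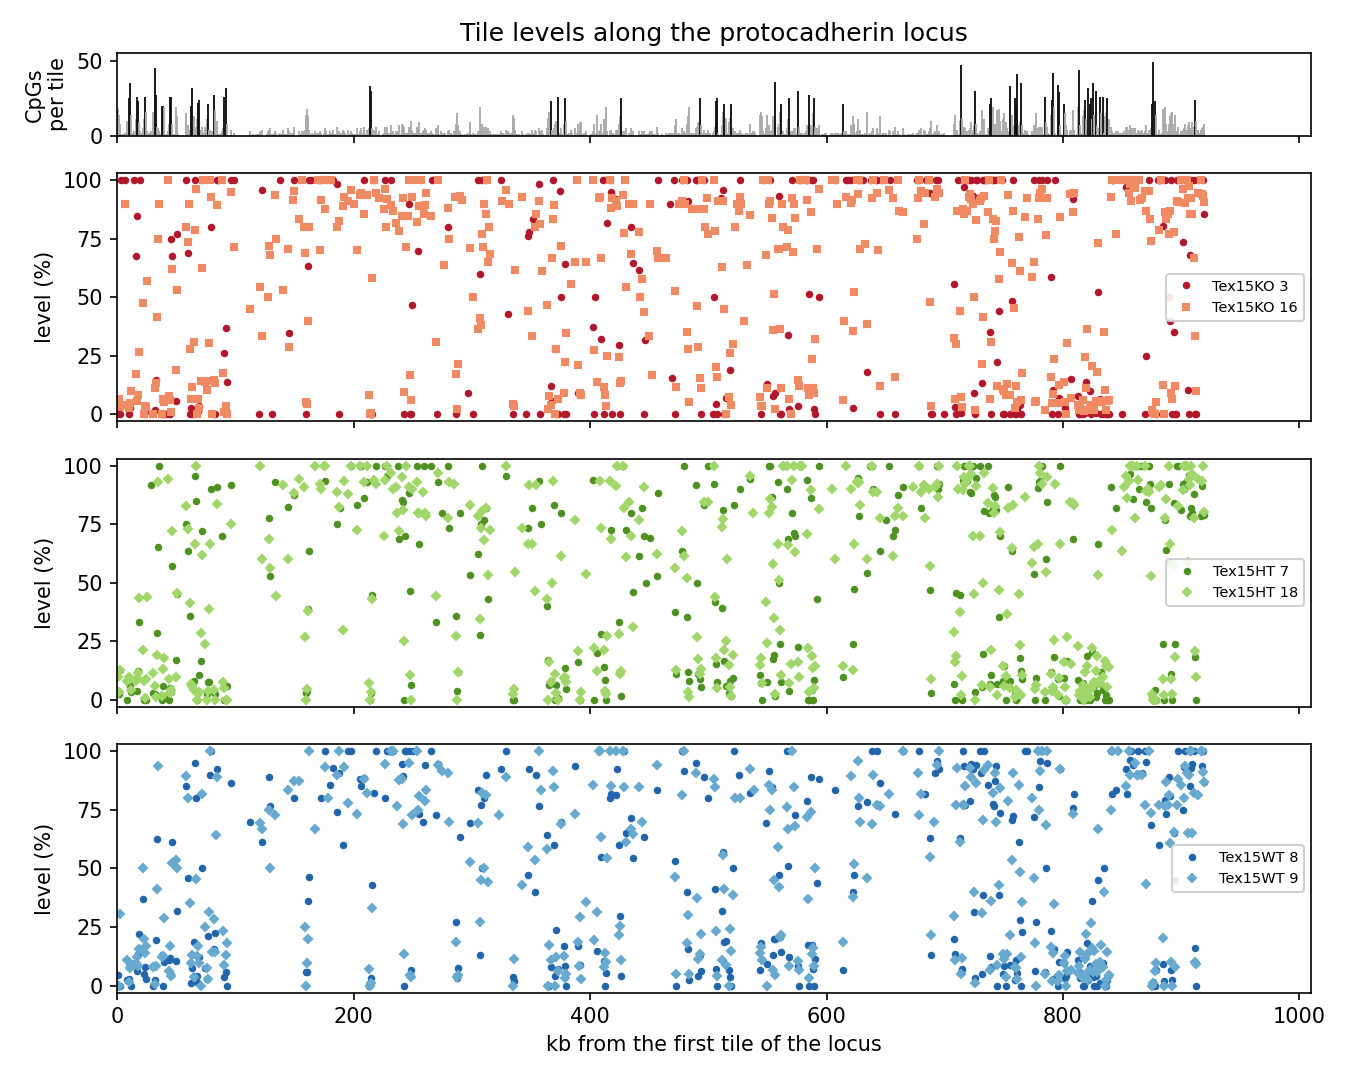
CpGs per 1 kb tile (top, dense tiles in black) and tile levels in percent (other panels, KO above HT above WT) by distance in kb from the first tile of the locus. Most dense tiles are below 20% in all 3 genotypes, and most sparse tiles between them are higher.

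Successive windows of 100 kb followed these blocks. The first, with 19 dense tiles, was at 23.6% in KO, 17.6% in HT and 19.9% in WT pups (means, n = 2 each). The next, with none, was at 67% in KO, 63.9% in HT and 64.1% in WT pups. The window from 500 to 600 kb, with 10 dense tiles, was at 32% in KO, 32.1% in HT and 32.4% in WT pups. The window from 600 to 700 kb, with 1, was at 61.3% in KO, 69.6% in HT and 70.7% in WT pups. Both KO pups (59.9% and 62.7%) lay below all controls (65.6% to 73.6%) in that window. It holds tiles chr18:37724001-37725000, chr18:37735001-37736000 and chr18:37747001-37748000, described below, in which both KO pups also lay below all controls. The share of these tiles in the difference was not tested. The 2 windows from 700 to 900 kb, with 14 each, were at 30.7% and 28.1% in KO, 27.1% and 25% in HT, and 30.4% and 24.6% in WT pups. From 800 to 900 kb both KO pups (29.6% and 26.5%) lay above all controls (23.6% to 25.5%). The window from 200 to 300 kb was at 48.9% in KO, 60% in HT and 59.8% in WT pups. That from 400 to 500 kb was at 49.1% in KO, 40% in HT and 44.1% in WT pups. In both of these, KO 16 lay within the range of the controls. Levels thus rose and fell in the same windows in each genotype, but by unequal amounts.

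Methylation was high within a few kb of the dense tiles, and at most distances it stayed below the level of the rest of the autosomes. Tiles with 1 to 9 CpGs that adjoined a dense tile were at 36.1 ± 7.63% in KO pups (n = 2) and 37.9 ± 3.11% in controls (SD, n = 4). At 2 kb they were at 77.3 ± 12.6% in KO pups and 66.1 ± 2.78% in controls, and at 3 kb at 83.3 ± 1.04% in KO pups and 81.3 ± 1.84% in controls. In the rest of the autosomes these tiles were at 49.9% in KO pups and 47.9 ± 0.417% in controls beside a dense tile, and at 88.1% in KO pups and 87.0 ± 1.63% in controls at 3 kb. At 5 kb the locus was at 87.3 ± 4.27% in controls, against 87.5 ± 1.63% in the rest, and at 78.7 ± 16.6% in KO pups, against 88.5%. KO 16, HT 18 and WT 8 (90.4%, 90.0% and 90.0%) lay above their own values in the rest (88.3%, 87.8% and 88.1%). The other pups lay below theirs. At 6 kb the locus was at 68.2 ± 6.98% in KO pups and 66.8 ± 5.06% in controls. More than 20 kb from any dense tile it was at 71.2 ± 5.93% in KO pups and 75.3 ± 2.34% in controls. Elsewhere such tiles were at 84.8% in KO pups and 83.8 ± 1.20% in controls.

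**Figure D3:**
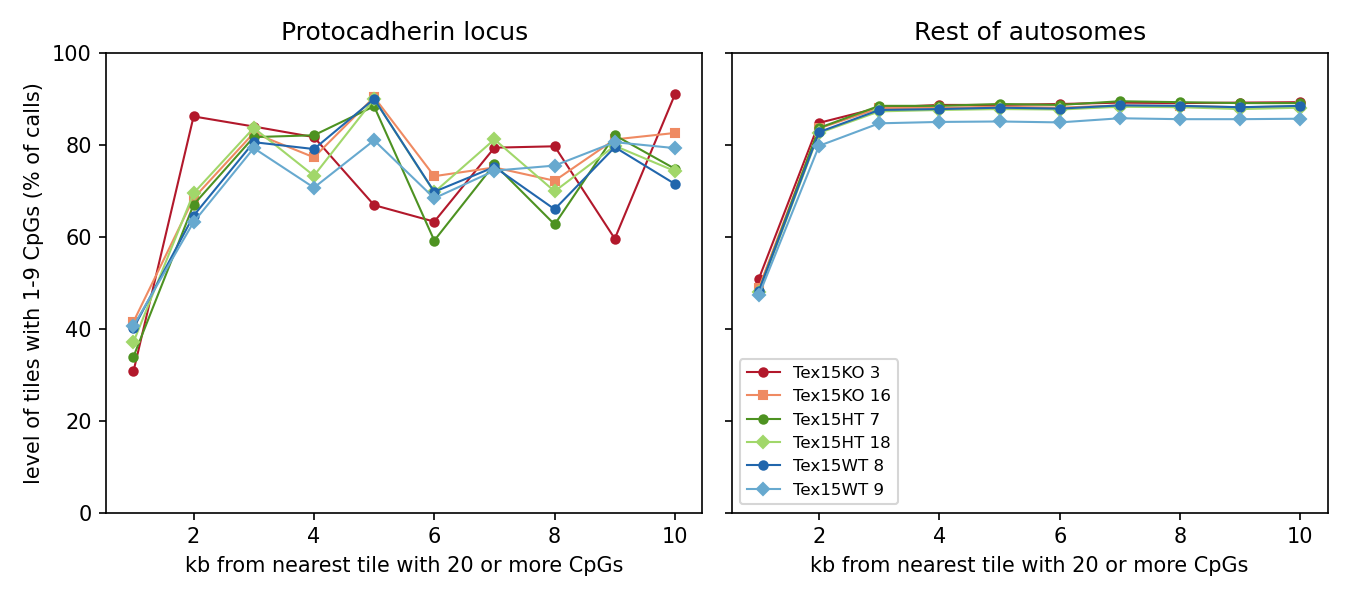
Level of tiles with 1 to 9 CpGs in percent of calls by distance in kb from the nearest dense tile. There is 1 line per pup, in the locus (left) and in the rest of the autosomes (right). Levels rise steeply over the first 3 kb in both panels. At 10 kb they end lower in the locus, except in KO 3 (91.0%, against 89.3% in the rest).

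Such sparse tiles were close to dense ones in the locus: 218 of 620 (35.2%) lay within 5 kb of one, against 6.06% in the rest of the autosomes. The gap in tiles with 3 to 9 CpGs was still there among those over 5 kb away. In these 181 tiles the locus had 69.1% and 74.8% in the KO pups, 71.9% and 74.7% in the HT pups, and 74.9% and 71.2% in the WT pups. The rest of the autosomes had 85.6% and 84.6% in the KO pups, 84.9% and 84.2% in the HT pups, and 84.6% and 82.3% in the WT pups. The mean difference was -11.6 points, and the locus was lower in every pup.

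Among the dense tiles, few were above 25%. KO 3 had 7 of the 54 that it covered with at least 10 calls, and KO 16 had 3 of 66. The HT pups and WT 8 had none, and WT 9 had 4 of 66. The SD over tiles was 19.2 and 8.32 points in the KO pups, 4.89 and 5.48 in the HT pups, and 5.56 and 8.11 in the WT pups. The rest of the autosomes had an SD over dense tiles of 22.4 and 18.4 points in the KO pups, 18.9 and 18.9 in the HT pups, and 18.8 and 18.8 in the WT pups. Within the locus KO 3 had both the lowest median and the widest spread.

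**Figure D4:**
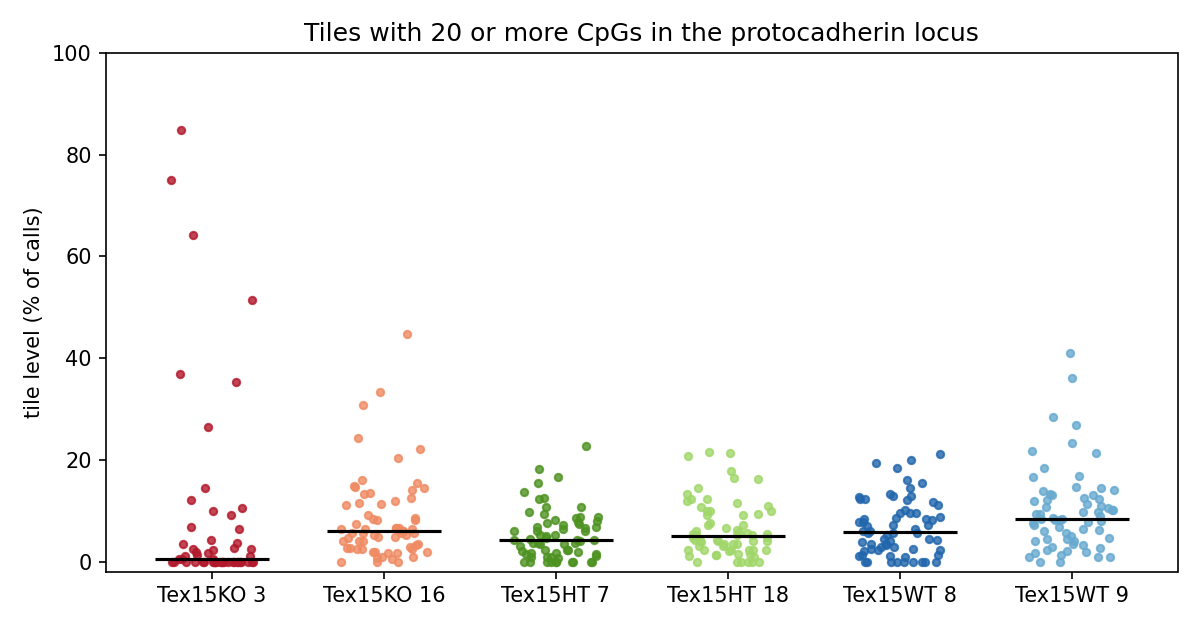
Level in percent of calls of each dense tile of the locus with at least 10 calls, 1 column of points per pup. Most points of every pup lie below 20%, and KO 3 has both many tiles at 0 and 7 above 25%.

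At the low end, tile chr18:37303001-37304000 with 33 CpGs had no C in the KO and HT pups and WT 9, where 56 to 145 calls allow levels of up to 2.07% to 5.36%, and 1.05% in WT 8. The tile after it, with 30 CpGs, had no C in KO 3 (up to 3.80% allowed), 0.513% in KO 16, 3.12% and 3.48% in the HT pups, and 3.33% and 0.962% in the WT pups. Tile chr18:37966001-37967000, with 49 CpGs, had 1.08% and 0.649% in the KO pups, no C in the HT pups, where 113 and 164 calls allow up to 2.65% and 1.83%, and 1.35% and 1.03% in the WT pups. Tile chr18:37815001-37816000 with 30 CpGs was without C in KO 3 and HT 18 (up to 2.27% and 3.09% allowed) and between 1.25% and 3.60% in the other 4 pups. These 4 tiles were near 0 in every pup. The other of the 5 dense tiles lowest in the controls, chr18:37675001-37676000, was at 51.5% and 8.46% in the KO pups and is described with the increases.

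At the high end, tile chr18:37603001-37604000 with 21 CpGs had no C among 24 calls in KO 3 (up to 12.5% allowed) and 44.8% in KO 16, 16.7% and 21.3% in the HT pups, and 18.5% and 41.1% in the WT pups. Tile chr18:37829001-37830000 with 25 CpGs had no C among 65 calls in KO 3 (up to 4.62% allowed) and 30.8% in KO 16, 10.8% and 21.5% in the HT pups, and 7.89% and 36.2% in the WT pups. In both, KO 16 and WT 9 were the highest. Tile chr18:37596001-37597000 with 23 CpGs had 4.31% and 20.3% in the KO pups, 15.5% and 17.9% in the HT pups, and 7.02% and 23.4% in the WT pups. Tile chr18:37665001-37666000 with 30 CpGs had 3.45% and 14.7% in the KO pups, 22.7% and 16.4% in the HT pups, and 8.47% and 10.5% in the WT pups. Tile chr18:38001001-38002000, the last dense tile, had no C among 18 calls in KO 3 (up to 16.7% allowed) and 33.3% in KO 16, 18.2% and 20.7% in the HT pups, and 16% and 10.1% in the WT pups. These 5 dense tiles, the highest in the controls, were below 50% in every pup.

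The deepest tiles were those with the most calls in their shallowest pup, where counting error is smallest if calls are independent. In KO 3 most cytosines with 6 to 10 calls read all C or all T, so its calls may not be independent. Tile chr18:37881001-37882000 with 42 CpGs had at least 101 calls in each pup, and was at 10.6% and 8.65% in the KO pups, 4.50% and 5.47% in the HT pups, and 2.94% and 13.9% in the WT pups. Its neighbour chr18:37880001-37881000 was without C in KO 3 (up to 3.23% allowed), and was at 4.93% in KO 16, 4.35% and 4% in the HT pups, and 2.47% and 1.92% in the WT pups. Tile chr18:37917001-37918000 was at 0.472% and 5.70% in the KO pups, 1.16% and 12.4% in the HT pups, and 4.05% and 9.30% in the WT pups. Tile chr18:37803001-37804000 with 47 CpGs was at 0.625% and 7.39% in the KO pups, 0.901% and 2.05% in the HT pups, and 5.59% and 5.06% in the WT pups. In none of these tiles were the 2 KO pups on 1 side of all controls.

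Over all its tiles, the locus was at 36.7% and 35.5% in the KO pups, 33.2% and 35.1% in the HT pups, and 34.5% and 35.8% in the WT pups. Both KO pups lay above both HT pups, and WT overlapped both. The level averaged 36.1 ± 0.834% in KO, 34.2 ± 1.31% in HT and 35.1 ± 0.885% in WT pups (SD, n = 2 each). KO minus WT was 0.971 points (p = 0.667), KO minus HT 1.93 points (p = 0.333) and HT minus WT -0.959 points (p = 0.667, exact permutation tests, two-sided). KO minus the 4 controls was 1.45 points (p = 0.2, exact permutation test). As a mean of tile levels, over tiles with at least 10 calls in the pup, it was 6.39 points (p = 0.0667, exact permutation test). That mean gave 7.15 points for KO minus WT and 5.62 for KO minus HT (exact permutation p = 0.333 for each). The tiles averaged differed between pups: those with 3 to 9 CpGs numbered 133 and 299 in the KO pups and 190 to 250 in the controls. Within the classes of 3 to 9, 10 to 19 and 20 or more CpGs the mean of tile levels gave 2.43, 4.43 and 1.41 points. Pooled over tiles with 10 calls in every pup, KO minus controls was 1.99 points (exact permutation p = 0.267). With 2 against 2 pups the smallest p is 0.333, and with 2 against 4 it is 0.0667, so these tests cannot reach 0.05. Pooled over all calls, KO minus controls was 0.546 points in tiles with 3 to 9 CpGs (p = 0.667, exact permutation test). It was 2.73 points in tiles with 10 to 19 CpGs (p = 0.333) and 1.08 points in dense tiles (p = 0.533, exact permutation tests). In dense tiles KO minus HT was 2.29 points and HT minus WT -2.41 points (exact permutation p = 0.333 for each). Adjusted p-values over the 16 differences were 0.889 to 1. Without KO 3, the difference in tiles with 10 to 19 CpGs was -0.116 points; without KO 16 it was 5.57 points, and that in tiles with 3 to 9 CpGs was -0.729 points.

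KO minus controls in the locus was also set against KO minus controls in the rest of the autosomes. In tiles with 3 to 9 CpGs the locus minus the rest was -16.9 ± 2.56 points in KO pups (n = 2) and -16.3 ± 1.01 points in controls (SD, n = 4), a difference of -0.582 points (exact permutation p = 0.8, adjusted p = 1). In tiles with 10 to 19 CpGs it was -25.5 ± 2.00 points in KO pups and -25.5 ± 1.95 points in controls (exact permutation p = 1). In dense tiles it was -5.79 ± 1.05 points in KO pups and -9.07 ± 1.68 points in controls, a difference of 3.28 points with p = 0.0667 (exact permutation test, the smallest possible) and adjusted p = 0.2. In this class the rest of the autosomes was at 13.7 ± 1.34% in KO pups and 15.9 ± 0.24% in controls. The locus was at 7.90 ± 0.283% in KO pups and 6.81 ± 1.91% in controls. The difference of 3.28 points became 3.85 in tiles with 10 calls in each pup (exact permutation p = 0.0667). It was 0.605 points against the rest of chromosome 18, 0.993 without the top 0.1% of coverage, and 1.02 against the matched rest. It was 0.913 as a mean and -1.97 as a median of tile levels, and 6.77 over cytosines read in all 6 pups. These last 6 settings had exact permutation p = 0.2 to 0.8.

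Tile by tile, no tile of the locus was called. The test took tiles with 3 or more CpGs and with 10 or more calls in every pup, which held for 177 of the 473 tiles with 3 or more CpGs; 225 had fewer than 10 calls in KO 3, and 272 could be tested without it. In edgeR's quasi-likelihood test with Benjamini-Hochberg adjustment over all 330110 tested tiles, 0 of 177 had an adjusted p under 0.05 for KO against WT, where 0.00939% of all tiles were called lower and 0.000303% higher. The count was also 0 for KO against HT (0.00485% lower and 0.000909% higher over all tiles), for HT against WT (0.00121% lower and 0.0% higher) and for KO against controls (0.0379% lower and 0.000606% higher). The lowest adjusted p in the locus was 0.223, for KO against controls. At an unadjusted edgeR p under 0.05, KO against WT gave 3 lower and 3 higher tiles of the locus (1.26% and 1.45% of all tiles). KO against HT gave 1 lower and 4 higher (1.27% and 0.939%), HT against WT 3 lower and 0 higher (0.188% and 0.35%), and KO against controls 2 lower and 5 higher (1.73% and 1.4%). With 1 KO pup left out, the other was assumed to vary like the other pups. Without KO 3, edgeR called 0 of 272 tiles for KO against WT (0.0891% of all tiles lower, 0.000355% higher), for KO against HT (0.0696% lower, 0.000533% higher) and for KO against controls (0.159% lower, 0.000533% higher).

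The count changed when KO 16 was left out. With KO 3 as the lone KO pup, edgeR called 7 lower and 10 higher of 177 tiles for KO against WT, where 3.01% and 1.75% of all tiles were called. For KO against HT it called 4 lower and 9 higher (3.18% and 1.58% of all tiles), and for KO against controls 6 lower and 11 higher (4.38% and 2.3%). Limma, the other tool, called 1 tile of the locus lower and 0 higher for KO against WT (0.0963% and 0.000303% of all tiles) and the same tile lower for KO against controls (0.271% lower, 0.00576% higher). Limma called 0 for KO against HT (0.0612% lower, 0.00151% higher) and 0 for HT against WT (0.0% in both directions). Its unadjusted p was under 0.05 in 6 lower and 7 higher tiles of the locus for KO against WT (2.8% and 5.72% of all tiles) and in 3 lower and 9 higher for KO against HT (2.88% and 3.45%). It was under 0.05 in 6 lower and 0 higher for HT against WT (0.442% and 1.12%) and in 5 lower and 10 higher for KO against controls (3.69% and 5.88%).

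The 1 tile that limma called was also the only tested tile with both KO pups more than 30 points below all 4 controls: 1 of 177 (0.565%), against 0.456% of all tested tiles. None lay more than 30 points above (0.0194% of all). This tile, chr18:37735001-37736000 with 13 CpGs, had 0 of 37 calls as C in KO 3 (which allows up to 8.11%) and 6 of 49 (12.2%, 95% Wilson interval 5.73% to 24.2%) in KO 16. The HT pups had 21 of 33 (63.6%, 46.6% to 77.8%) and 21 of 27 (77.8%, 59.2% to 89.4%), and the WT pups had 45 of 52 (86.5%, 74.7% to 93.3%) and 33 of 43 (76.7%, 62.3% to 86.8%). A tile that meets this margin has no overlap of KO and controls by definition. KO averaged 6.12 ± 8.66% (n = 2) against 76.2 ± 9.44% in controls (SD, n = 4), a difference of -70.1 points. The unadjusted edgeR p was 0.00032 for KO against controls (adjusted p = 0.223), and the adjusted p for KO against WT was 0.595; limma gave adjusted p = 0.0158 and 0.0469. The tile was left out when 30 calls were asked of each pup. Leaving out a pup can only loosen the margin of 30 points, so doing so was no check on this tile.

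The calls of the KO pups were spread differently over the CpGs of the tile. KO 16 covered 12 of the 13 and had no C at 8. KO 3 covered 6 and had no C at any, and 12, 12 and 9 of its 37 calls fell at 3 CpGs where KO 16 had 1, 0 and 2 calls. The pooled controls read more than 50% C at 12 of the 13 CpGs, within a range of 36.4% to 100%. The 5 kb on either side were methylated in all pups. Before the tile the level was 100% and 84.8% in the KO pups, 100% and 84.6% in the HT pups, and 100% and 81.0% in the WT pups. After it the level was 82.4% and 82.4% in the KO pups, 81.2% and 71.4% in the HT pups, and 81.0% and 77.8% in the WT pups. The tile lay 32 kb from the nearest dense tile, and none of its 8 patterns of 5 successive CpG distances occurred elsewhere in the table.

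**Figure D5:**
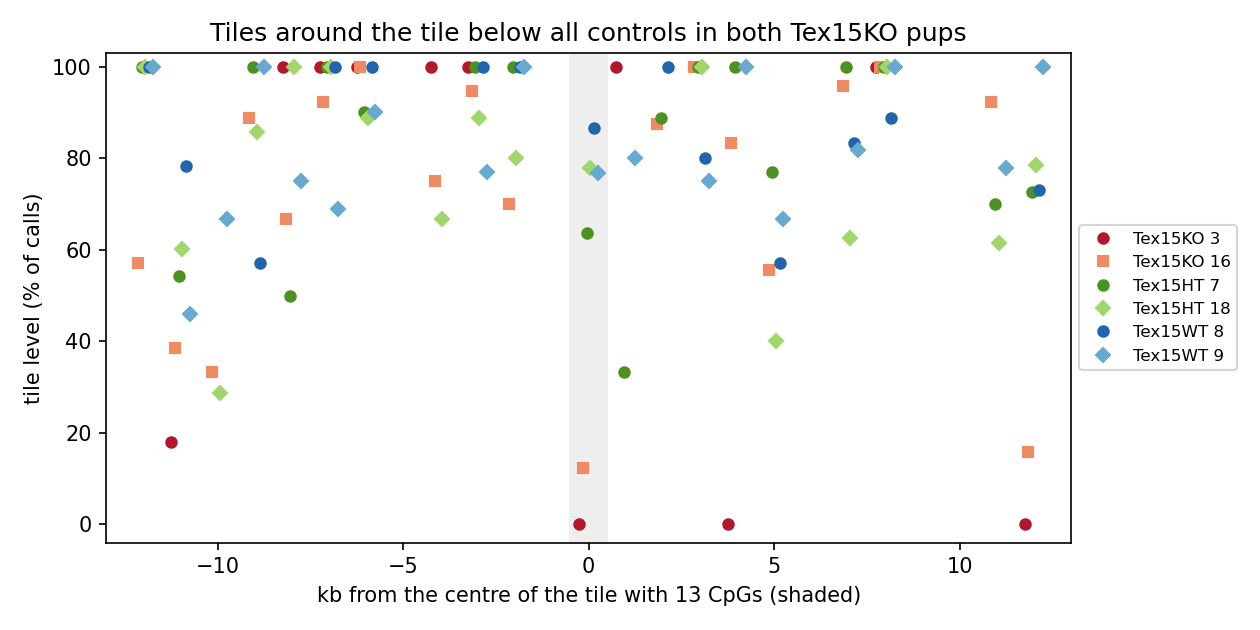
Level in percent of calls of the tiles around chr18:37735001-37736000 (shaded) by distance in kb from its centre, 1 symbol per pup. The KO pups are at 0% and 12.2% in the shaded tile, the controls at 63.6% to 86.5%, and the 5 kb on either side are at 71.4% to 100% in all pups when pooled.

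A second tile had both KO pups more than 30 points below all controls when 5 calls per pup were enough. This tile, chr18:37747001-37748000 with 6 CpGs, had no C among 23 calls in KO 3 (up to 13% allowed) and 15.8% in KO 16, against 72.7% and 78.6% in the HT pups and 73.1% and 100% in the WT pups. WT 9 had only 9 calls there, and 2 of 268 tiles (0.746%) met the margin at this depth, against 0.42% of all tiles.

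Differences of any size with both KO pups on 1 side of all controls were counted next. Both KO pups lay below all controls in 11 of 177 tiles (6.21%), against 4.32% of all tested tiles, and above them in 13 (7.34%), against 8.24%. Beside the tile above, the largest decreases were in chr18:37724001-37725000 and chr18:37979001-37980000. The first, with 16 CpGs, had 18% and 38.6% in the KO pups, 54.3% and 60.2% in the HT pups, and 78.3% and 45.9% in the WT pups. The second, with 8 CpGs, had 50% and 77.1% in the KO pups, 92.3% and 100% in the HT pups, and 88.9% and 81.2% in the WT pups. Neither passed the edgeR test (adjusted p = 1 for KO against controls).

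The largest increases included 2 dense tiles. Tile chr18:37468001-37469000 with 25 CpGs, in the third block, had 64.3% and 22.2% in the KO pups, 13.7% and 10.0% in the HT pups, and 8.33% and 3.28% in the WT pups (edgeR adjusted p = 1 for KO against controls). Tile chr18:37675001-37676000 with 27 CpGs, among the 5 lowest dense tiles in the controls, had 51.5% and 8.46% in the KO pups, no C in HT 7 (up to 3.75% allowed) and 3.19% in HT 18, and no C in WT 8 (up to 3.53% allowed) and 3.39% in WT 9. Its edgeR adjusted p was 0.964 for KO against controls. Tile chr18:37649001-37650000 with 8 CpGs had 93.1% and 70.6% in the KO pups, 50% and 51.4% in the HT pups, and 47.4% and 42.1% in the WT pups (edgeR adjusted p = 1). In all 3 the KO pup farther from the controls was KO 3, and none passed the test.

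The median over tested tiles of KO minus controls was 2.62 points in the 63 tiles of the locus with 3 to 9 CpGs, against 2.75 points over all tested tiles of that class. In the 60 with 10 to 19 CpGs it was -1.07 points, against 1.68, and in the 54 dense ones -1.22 points, against -0.195. With KO 16 alone against the controls these medians were 1.15, 1.38 and -0.236 points in the locus, against 1.13, 0.503 and -0.0824 points over all tested tiles. With KO 3 alone they were 6.77, -4.16 and -3.88 points in the locus, against 5.94, 4.5 and -0.563 points over all tested tiles.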

How the data were processed

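Per the labels' protocols, unmethylated lambda phage DNA was added before bisulfite treatment and the Ovation Ultralow Methyl-Seq kit gave the libraries. The authors deposited 1 table for all samples with, per the file headers, counts at each CpG cytosine: coverage, C calls and T calls. The submitters' processing notes name BSMAP, Bismark, methylKit and mm9. Their roles and versions, removal of PCR duplicates and the conversion rate are not given in sources used here.

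The strands of a CpG were merged and calls were summed per 1 kb tile. A level is the share of C among the calls, pooled over the tiles of a class. Tiles with at least 3 CpGs and 10 calls in each of 6 pups were tested with edgeR 4.0.16 in R 4.3.3. The quasi-likelihood test took C and T counts with an intercept per sample. Adjustment was Benjamini-Hochberg over 330110 tiles, with a call at adjusted p under 0.05. A single dispersion was shared over all tiles, and the quasi-likelihood spread of a tile was moderated towards that of other tiles. A tile's p thus does not rest on the spread of its own pups alone. Limma 3.58.1 on log2 ratios of C to T counts with a pseudocount of 1 was the other tool. Levels were compared by exact permutation over pups. Each pup is a separate animal.

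Tiles named in the text are those called by edgeR (none), those with both KO pups over 30 points beyond all controls, the 5 dense tiles highest and the 5 lowest in controls, the 5 deepest, and the 3 largest decreases and 3 largest increases with both KO pups on 1 side of all controls. The locus and these rules were chosen with earlier results of these data known. Reads that lack molecular identifiers may be PCR copies, so intervals and limits for a count of 0 (3 counts of the total) cover counting error only. The locus had 2.01 to 3.96 calls per cytosine and pup, against 2.74 to 5.28 in the whole table. Alternatives were other depth minimums, tile sizes of 500 bp and 2 kb and CpGs read on both strands (genotype differences; 2 kb also for the margin), the top 0.1% of coverage left out, the mean of tile levels, the rest of chromosome 18 as the comparison, and each pup left out. Added after seeing the data were the median of tile levels, a rest matched on CpGs per tile, cytosines with calls in all 6 pups, and tiles over 5 kb from a dense tile.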

Additional observations from a re-analysis of the deposited data

How the results depend on the processing

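Lower methylation of the locus than of the rest of the autosomes in tiles with 3 to 9 and 10 to 19 CpGs had the same direction under each alternative run for it, which did not include other tile sizes or CpGs read on both strands. Its size ranged from -19.28 to -6.819 points (3 to 9 CpGs) and from -78.62 to -16.42 (10 to 19). With 1 pup left out the smallest p is 0.0625, and the differences ranged from -16.74 to -16.02 points (3 to 9 CpGs), -25.97 to -25.11 (10 to 19) and -8.559 to -7.426 (dense tiles). In dense tiles the difference was 2.232 points against the rest of chromosome 18, 1.231 without the top 0.1% of coverage, 3.988 for the median of tile levels and -0.1921 (p = 0.688, exact permutation test) for the mean of tile levels, and -17.47 over cytosines read in all 6 pups, -8.649 in tiles with 10 calls in each pup and -5.214 against the matched rest; the cause was not tested.

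Tile size cannot change a level pooled over all tiles, so 500 bp and 2 kb tiles are no check on it. Under the other alternatives, KO minus WT, HT and controls over all tiles stayed positive. Over cytosines read in all 6 pups, KO minus WT was only 0.000812 points. With the mean of tile levels, taken over tiles that differed between pups, these differences were 7.154, 5.616 and 6.385 points. Pooled over tiles with 10 calls in each pup they were 1.268, 2.71 and 1.989 points. KO minus HT and KO minus controls in dense tiles also kept their sign. Other genotype differences changed sign. KO minus WT was 0.148 points in dense tiles and HT minus WT 1.538 over all tiles with the mean of tile levels. With 500 bp tiles HT minus WT was -0.4556 (3 to 9 CpGs), and KO minus WT was -1.079 (10 to 19) and 0.08241 (dense). With 2 kb tiles KO minus WT was -0.08223, -0.4806 and 1.393 in the 3 classes, KO minus HT -1.038 and KO minus controls -0.5599 (3 to 9), and KO minus HT -0.9485, HT minus WT 0.4679 and KO minus controls -0.7146 (10 to 19). Over cytosines read in all 6 pups KO minus WT was -1.017 and HT minus WT -2.273 (3 to 9), and KO minus WT 0.1825 (dense). With 1 pup left out, tiles with 3 to 9 CpGs gave KO minus WT -0.5199 to 2.065, KO minus HT -0.9553 to 1.595, KO minus controls -0.7289 to 1.821 and HT minus WT -0.8398 to 1.745. Tiles with 10 to 19 gave KO minus WT -0.5099 to 5.175, KO minus controls -0.1157 to 5.569 and HT minus WT -3.088 to 1.511, and dense tiles gave KO minus WT -1.571 to 1.325.

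KO minus controls in the locus less that in the rest, for 10 to 19 CpGs, was 2.192 against chromosome 18, 2.164 without the top 0.1% of coverage, 4.167 for the mean of tile levels, 1.284 for the matched rest, 0.4609 far from dense tiles and -1.438 to 1.393 with 1 pup left out. For 3 to 9 CpGs it was 1.646 (mean of tile levels), 7.787 (median) and -2.39 to 1.226 (1 pup left out), and for dense tiles -1.972 (median) and otherwise 0.605 (chromosome 18) to 6.773 (cytosines read in all 6 pups).

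Limma called 1 tile for KO against WT and 1 for KO against controls. With 1 pup left out edgeR called 0 to 17 tiles for KO against WT, 0 to 13 for KO against HT and 0 to 17 for KO against controls, all calls coming without KO 16. Both KO pups lay over 30 points below all controls in 2 tiles at 5 calls, 0 of 63 at 30 calls (0.537% of all tiles) and 1 to 5 with 1 pup left out, and above in 0 to 12. Without KO 16 the 5 and 12 tiles (2.82% and 6.78%) stood against 5.4% and 1.94% of all tiles, and without WT 9 the count below was 2 of 185 (1.08%), against 0.5% of all tiles. No paired analysis was possible because the sample labels used here give no litter. Whether litter differed between the genotypes could not be checked. Depth in KO 3 limits which tiles could be tested: it had under 10 calls in 225 of 473 tiles.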

Other observations

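At the 950 CpGs of the locus read on both strands, the level on the plus and the minus strand was 33.2% and 44.5% in KO 3, 34.8% and 32.6% in KO 16, 29.6% and 32.1% in HT 7, 31.6% and 36.0% in HT 18, 32.6% and 33.1% in WT 8, and 32.1% and 36.3% in WT 9. The gap was widest in KO 3.

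Several tiles of the locus were far from the controls in KO 3 alone. Tile chr18:37106001-37107000 with 26 CpGs had 84.8% in KO 3 and 5.68% in KO 16, against 3.75% to 12.2% in the controls. Tile chr18:37135001-37136000 with 26 CpGs had 75.0% in KO 3 and 1.02% in KO 16, against 3.57% to 4.55% in the controls. Tile chr18:37996001-37997000 with 9 CpGs had no C among 16 calls in KO 3 (up to 18.8% allowed) and 97.5% in KO 16, against 90.0% to 96.0% in the controls. These tiles were named after their values were seen, and their difference rests on 1 pup.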
